A study of Rattus norvegicus with 18 samples.

Results

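The major histocompatibility complex of the rat, named RT1, was described here in visceral white adipose tissue (vWAT) through the genes that the deposited table places on chromosome 20 with a start between 1000000 and 6000000 (Rnor_6.0). The table listed 344 genes there. Of these, 98 had no count in any rat and 37 had fewer than 10 counts over all 18 rats, which left 209 member genes out of 17545 genes with at least 10 counts in the whole table. The members were chosen by position and count alone. They are numbered 1 to 209 by start, and a gene number below is that order.

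RNA-seq libraries came from 3 groups of 6 rats on a standard diet. The spontaneously hypertensive rats (SHRs) were male and 7 to 8 weeks old when they were assigned to a group, and the age of the other rats is not given in the sources used here. Wistar-Kyoto (WKY) rats, a normotensive strain, and one group of SHRs (SHR-Water) drank tap water. The other group of SHRs (SHR-TMAO) drank water with 1 g/L trimethylamine N-oxide (TMAO), a metabolite that the liver makes from a gut bacterial product, for 22 weeks. SHR-Water and WKY therefore differ by strain, SHR-TMAO and SHR-Water by treatment, and SHR-TMAO and WKY by both. WKY and SHR are inbred strains, so the contrast between them is one of whole genomes and not of hypertension alone. No sample carried an engineered allele. Each library is taken as 1 rat, and p-values measure the spread between these rats.

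The RT1 complex holds the genes by which cells show peptides to T cells. Class I molecules sit on nearly all nucleated cells and present peptides made inside the cell to CD8+ T cells. Class II molecules sit mainly on macrophages, dendritic cells and B cells and present engulfed peptides to CD4+ T cells, while the class III stretch between them holds complement and tumour necrosis factor genes. In the rat, class I genes lie on both sides of the class II and class III genes, and they are known for many similar copies whose number and sequence differ between strains. Adipose tissue is a mixture of adipocytes, vessels and immune cells, among which macrophages are common.

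The files do not pair the gene identifiers with names. A RefSeq table of another assembly (GRCr8) lists 67 RT1 genes on chromosome 20, of which 44 are protein coding, 19 are pseudogenes and 11 carry class II symbols, but it matched 0 of the identifiers. No member is therefore assigned to class I, II or III here, and the markers that define adipocytes and immune cells were not analysed here. In bulk tissue, fewer cells of a type and less RNA per cell cannot be told apart. Reads placed at several sites or over several genes were not counted by the authors, so the counts of near-identical copies and of overlapping genes are uncertain. Reads of both strains were placed on the same reference, Rnor_6.0. The part of sequence differences between the strains in low or high counts was not tested. Of the members, 26 share exon sequence with another gene on the same strand and 38 with a gene on the other strand. Counting by strand is meant to keep the latter apart, and whether it did so here was not tested.

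Library totals lay between 10774133 and 18874161 counts, and no pair of libraries of a group was within sampling noise. The share of all counts that fell on members was 0.624% ± 0.01 for WKY rats, 0.611% ± 0.0656 for the SHR-Water group and 0.66% ± 0.0914 for the SHR-TMAO group (SD, n = 6 each), so these shares overlapped. Levels below are CPM, which are counts scaled by the library total after TMM normalization. Levels between genes are compared per length, as FPKM, which divides the counts by exon length and library total. On average 13 members were above 100 CPM and 64 were under 1 CPM, and 70 were above 10 CPM in every rat. The median coefficient of variation between rats of a group was 27.2% for WKY, 27.0% for SHR-Water and 24.1% for SHR-TMAO over the 144 members that passed the low-count filter in all comparisons. Over all genes it was 26.4%, 25.2% and 22%. The members thus varied between rats about as much as other genes did.

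Within a group, the members were often low or high in the same rat. WKY replicate 2 was the lowest WKY rat for 62 of the 144 members (43.1%, against 24% of 12602 genes), and SHR-Water replicate 2 was the lowest SHR-Water rat for 53 of them (36.8%, against 18.9%). SHR-Water replicate 1 was the highest SHR-Water rat for 58 (40.3%, against 28.5%). The counts of members called or not overlapping and the median differences are given below also without these 3 libraries, 1 at a time.

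The first comparison asked how the region differs between the strains. In SHR-Water, most RT1 region genes had lower values than in WKY, mostly without a call, and a few were far higher. A gene is called changed at a Benjamini-Hochberg adjusted p-value under 0.05 (edgeR's quasi-likelihood test over all genes) and a fold change of at least 2. Of the 151 members tested, 20 were called (13.2%), 4 higher and 16 lower. Over all 13017 genes tested, 3.42% were called, with 1.29% higher and 2.13% lower. The count was 26 without WKY replicate 2 (16.9% of members tested, against 9.73% of all genes), 25 without SHR-Water replicate 1 (16.2%, against 5.5%) and 17 without SHR-Water replicate 2 (11%, against 2.64%). The median log2 fold change was -0.30 over the members tested and -0.00 over all genes tested. Over the members it was -0.30, -0.36 and -0.25 without each of these rats in turn. Of the 151 members 117 had a value below 0 (77.5%), against 50.3% of all genes, and without the same rats 72.7%, 78.6% and 72.1% of members did. The remaining members were not called. Some of them differed by more than 2-fold but with a wide spread, such as gene 106 (log2 -1.70 ± 0.67 SE, edgeR adjusted p = 0.144). Of the 151, 74 (49%) had a 95% interval within a fold of 2 in either direction, as did 61.9% of all genes.

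**Figure D1:**
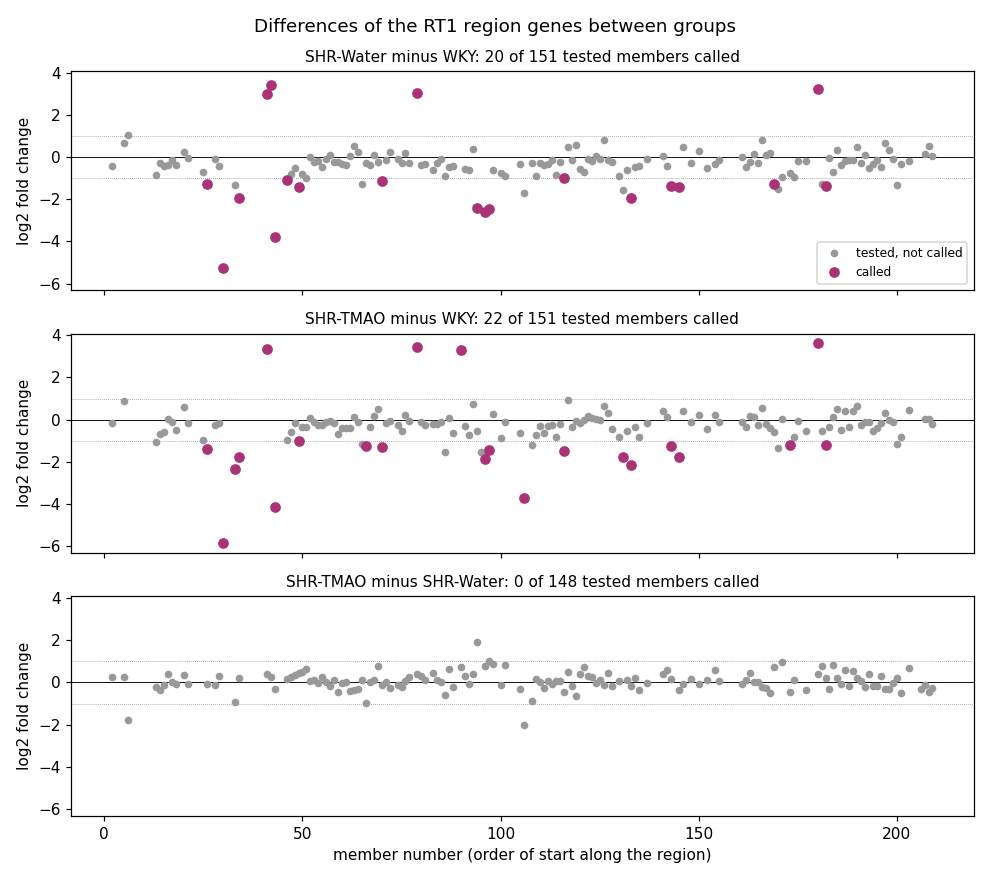
Log2 fold change of each tested member (y axis) by its order along the region (x axis) in the 3 comparisons. Purple points are called, grey points are tested and not called, and dotted lines mark a fold of 2. Called members lie along most of the region in both comparisons with WKY, and none is called by edgeR between SHR-TMAO and SHR-Water.

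SHR-TMAO rats were also compared with WKY, using the same 6 WKY rats, so the 2 comparisons are not independent of each other. Here 22 of 151 members were called (14.6%), 4 higher and 18 lower, against 3.62% of 12833 genes (1.45% higher and 2.17% lower). The count was 28 without WKY replicate 2 (18.3% of members tested, against 4.83% of all genes). The median log2 fold change was -0.23 over the members (-0.25 without WKY replicate 2) and -0.02 over all genes. With length offsets the members' medians were -0.33 for SHR-Water and -0.20 for SHR-TMAO, so the sign was the same.

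**Figure D2:**
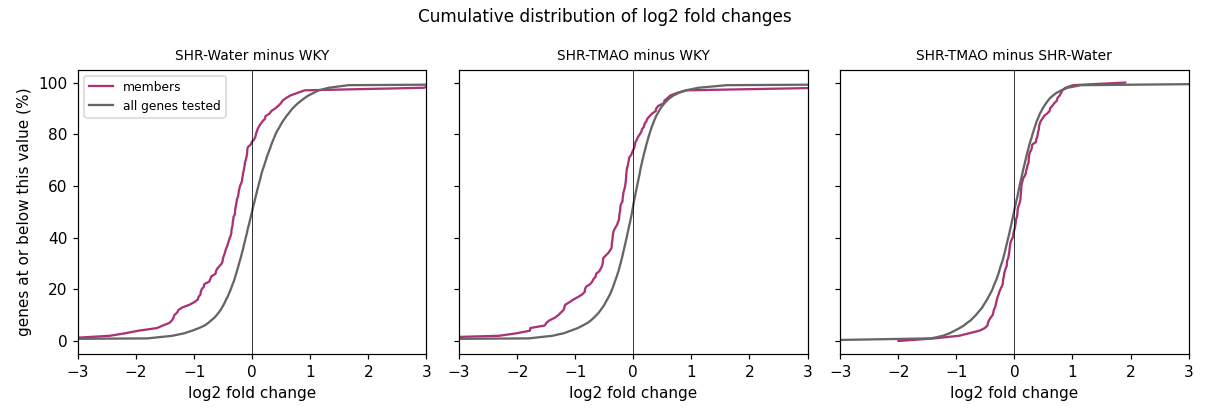
Share of genes (y axis, percent) with a log2 fold change at or below the value on the x axis, for the tested members (purple) and all genes tested (grey). Over most of the range the members lie to the left of all genes in both comparisons with WKY (medians -0.30 and -0.23) and close to them between SHR-TMAO and SHR-Water (median 0.05).

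By position, the called members were spread over the region. In SHR-Water against WKY, the stretch from 3 to 3.5 Mb held 5 of them among 27 tested members, 2 higher and 3 lower. The stretch from 4 to 4.5 Mb held 3 lower among 21 tested, with a median log2 fold change of -0.57. The lowest median, -1.34, was that from 2.5 to 3 Mb, with 2 called lower among 5 tested. From 1.5 to 2 Mb the median was 0.66, with 0 called among 3 tested. Over the whole region 13.2% of tested members were called. The last stretch, from 5.5 to 6 Mb, held none among 12 tested, with a median of -0.12. Of the 20 called members, 10 had a called member as the next tested gene on one side or the other. No such count was made over all genes, so it does not tell whether calls lie closer together here.

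The gene with the largest share of the region's signal was gene 180 (ENSRNOG00000038999), on the plus strand at chr20:5351605-5421098 with 12 exons. In WKY its level ran from 80.8 to 206 CPM with a median of 128. In SHR-Water it ran from 793 to 2124 CPM with a median of 1068, and in SHR-TMAO from 1131 to 2252 CPM with a median of 1413. No SHR of either group came within the WKY range. The fold change was 9.27 in SHR-Water (log2 3.21 ± 0.31 SE, edgeR adjusted p = 3.59e-05) and 12.2 in SHR-TMAO (log2 3.61 ± 0.26 SE, adjusted p = 1.11e-06). Per length, its level was 47.4 FPKM ± 12.3 for WKY, 445 ± 138 for SHR-Water and 572 ± 172 for SHR-TMAO (SD, n = 6 each). It was the member of highest FPKM in both SHR groups, while gene 184 was the highest in WKY at 170 FPKM ± 35.5.

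Gene 180 alone held 20.3% of the members' summed CPM in SHR-Water and 23.6% in SHR-TMAO, whereas the top member in WKY held 6.82%. The summed CPM of all members was 6226 ± 343 for WKY, 6029 ± 1205 for SHR-Water and 6805 ± 945 for SHR-TMAO (SD, n = 6 each). Without gene 180 the sums were 6095 ± 303, 4805 ± 690 and 5197 ± 488. On average, the similar total of the 3 groups held a higher gene 180 and a lower sum of the other members in the SHRs. Gene 180 was set aside because it held the largest share. The sums without it overlapped, reaching 5829.5 in SHR-Water and 5877.5 in SHR-TMAO against a lowest WKY sum of 5639.3. Their difference was not tested.

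Gene 180 spans 2 other members on its strand, genes 181 and 182, whose exons it overlaps in the annotation. Gene 182 (chr20:5374985-5378539, 8 exons) went the other way. It ran from 47.3 to 146 CPM in WKY and from 16.7 to 47.3 CPM in SHR-Water, where 1 rat reached the lowest WKY level. Its log2 fold change was -1.38 ± 0.30 in SHR-Water (adjusted p = 0.0147) and -1.18 ± 0.24 in SHR-TMAO (adjusted p = 0.00819), and the latter was -0.95 without WKY replicate 4, under the fold limit. Gene 181 had mean levels of 3.91, 1.6 and 2.72 CPM in WKY, SHR-Water and SHR-TMAO and was not called. Reads over exons of more than 1 gene were left out, and the part of this in the opposite directions of genes 180 and 182 was not tested.

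The second gene far above WKY was gene 79 (ENSRNOG00000047706), on the minus strand at chr20:3791407-3794027 with 6 exons. It ran from 4.02 to 8.79 CPM in WKY (median 5.68), from 36.3 to 71.7 in SHR-Water (median 48.5) and from 46.1 to 84.1 in SHR-TMAO (median 65.0). The lowest SHR was above the highest WKY rat by a wide margin. It rose 8.18-fold in SHR-Water (log2 3.03 ± 0.22 SE, adjusted p = 2.4e-06) and 10.8-fold in SHR-TMAO (log2 3.44 ± 0.20 SE, adjusted p = 1.59e-07). Gene 80 overlaps it on the same strand and had mean levels of 5.70, 4.52 and 5.40 CPM in WKY, SHR-Water and SHR-TMAO, with no call.

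Genes 41 and 42 overlap each other on opposite strands, at chr20:3135791-3140610 and chr20:3139258-3166569. Both had few counts in WKY, between 0 and 7 per rat. Gene 41 ran from 1.25 to 3.79 CPM in SHR-Water and from 0.965 to 5.72 in SHR-TMAO, against 0 to 0.64 in WKY. Its log2 fold change was 2.96 ± 0.60 in SHR-Water (adjusted p = 0.00989) and 3.33 ± 0.68 in SHR-TMAO (adjusted p = 0.00895). Gene 42 ran from 0.975 to 2.06 CPM in SHR-Water and from 0 to 0.632 in WKY, with a log2 fold change of 3.39 ± 0.73 (adjusted p = 0.0132). In SHR-TMAO gene 42 ran from 0.414 to 3.24 CPM, which overlaps WKY, and it did not pass the filter on low counts in that comparison. These folds rest on few counts and are the least precise of the raised genes. Whether reads of 1 of these genes were counted for the other was not tested.

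Gene 90 (chr20:3945601-3952846, 4 exons) was another low gene of this kind. It ran from 0.061 to 0.541 CPM in WKY, from 0.546 to 4.46 in SHR-Water and from 1.56 to 5.34 in SHR-TMAO. It was called in SHR-TMAO (log2 fold change 3.31 ± 0.44, adjusted p = 4.35e-04) and did not pass the filter in the comparison of SHR-Water with WKY, although these ranges did not overlap either.

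**Figure D3:**
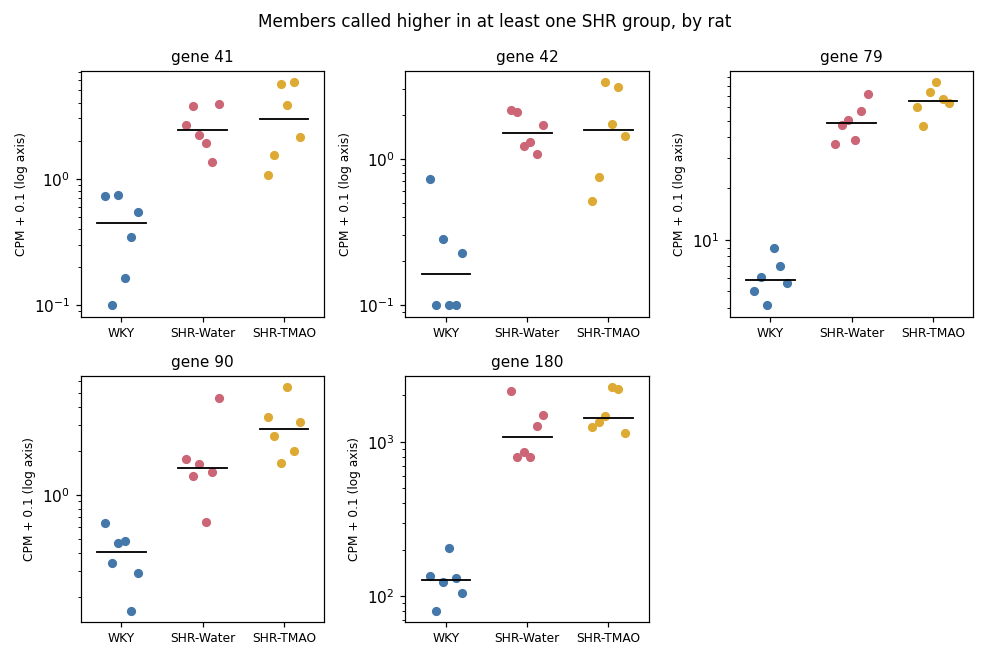
CPM + 0.1 of each rat (y axis, log scale) for the 5 members called higher in at least 1 SHR group, with a line at the group median of 6 rats. All WKY rats lie below all SHR-Water rats in each of the 5 genes, with WKY levels of gene 180 from 80.8 to 206 CPM and SHR-Water levels from 793 to 2124 CPM.

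Among the genes that fell, gene 43 (ENSRNOG00000029386) had the smallest adjusted p. It lies on the plus strand at chr20:3146856-3150852, has 8 exons and lies within the span of the raised gene 42, which is on the other strand. It ran from 35.2 to 87.4 CPM in WKY (median 52.5), from 3.0 to 5.1 in SHR-Water (median 4.16) and from 2.37 to 4.55 in SHR-TMAO (median 3.1). Every SHR had less than the lowest WKY rat. The level was 14.0-fold lower in SHR-Water (log2 -3.81 ± 0.26 SE, adjusted p = 9.82e-07) and 17.7-fold lower in SHR-TMAO (log2 -4.15 ± 0.26 SE, adjusted p = 4.11e-07).

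Gene 30 (chr20:2540864-2541440, 2 exons) had the largest difference of the called members. It ran from 4.78 to 11 CPM in WKY, or 53 to 171 counts. In SHR-Water it ran from 0 to 0.549 CPM and in SHR-TMAO from 0 to 0.251 CPM, with at most 8 counts in any SHR. A count of 0 allows up to 3 counts, which is between 0.159 and 0.278 CPM in these libraries, for counting error only. The fitted log2 fold changes were -5.27 ± 0.57 (adjusted p = 7.44e-05) and -5.85 ± 0.48 (adjusted p = 4.13e-06). With so few counts in SHRs these fitted values depend on the prior count.

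Complete absence of counts in 1 strain was rare. Genes 35 and 178 (chr20:2878047-2878560 and chr20:5346501-5347801) had 0 counts in all 12 SHRs, and between 1 and 17 and between 3 and 22 counts in the WKY rats. Both were below the filter and were not tested. No member had 0 counts in all rats of 1 strain and more than 10 in every rat of the other.

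Genes 96 and 97 are neighbours in which both SHR groups were low. Gene 97 (ENSRNOG00000000451) is on the minus strand at chr20:4066132-4070721 and has 5 exons. It ran from 36.4 to 76.8 CPM in WKY (median 56.9), from 7.01 to 14.4 in SHR-Water (median 10) and from 12.7 to 29.5 in SHR-TMAO (median 21.4). It was 5.48-fold lower in SHR-Water (log2 -2.45 ± 0.22 SE, adjusted p = 1.32e-05) and 2.72-fold lower in SHR-TMAO (log2 -1.44 ± 0.24 SE, adjusted p = 0.00296). Gene 96 (chr20:4039413-4049711, 6 exons, plus strand) ran from 107 to 197 CPM in WKY, from 14.1 to 46.2 in SHR-Water and from 30 to 55.3 in SHR-TMAO. Its log2 fold changes were -2.62 ± 0.26 (adjusted p = 3.62e-05) and -1.87 ± 0.18 (adjusted p = 2.49e-05). In both genes every SHR was below every WKY rat.

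Gene 94 (chr20:3995544-4009587, 12 exons) lies before them. It ran from 3.25 to 8.58 CPM in WKY and from 0.339 to 2.89 in SHR-Water (log2 fold change -2.41 ± 0.48, adjusted p = 0.00921). In SHR-TMAO it ran from 0.483 to 11.8 CPM, with rats 2 and 6 at 10.7 and 11.8 and the other 4 at most 2.33, and the difference from WKY was not called (log2 -0.52 ± 0.63, adjusted p = 0.676).

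Members with 8 exons stood out after their values were seen. Of 14 tested members with 8 exons, 6 were called lower in SHR-Water, namely genes 43, 46, 49, 143, 145 and 182. Of all 720 tested genes with 8 exons, 24 were called in either direction (3.33%), these 6 included. Of all 151 tested members, 20 were called in either direction (13.2%) and 16 of them lower (10.6%). The group with 8 exons was picked from these same calls, so its share is a description and not a test of exon number. Genes 143, 145 and 182 share exon sequence with other genes on their strand. Gene 49 (chr20:3189473-3197457) ran from 54.2 to 105 CPM in WKY and from 22.2 to 44.1 in SHR-Water (log2 fold change -1.44 ± 0.20, adjusted p = 8.07e-04). In SHR-TMAO it ran from 14.6 to 64.6 CPM, which overlaps WKY, and its call there (log2 -1.03 ± 0.29, adjusted p = 0.0455) was lost in 10 of the 12 fits that left out a rat. Gene 143 (chr20:4892702-4896991) had means of 85.4 CPM ± 23.7 for WKY, 33.5 ± 11.2 for SHR-Water and 36.4 ± 13 for SHR-TMAO (SD, n = 6 each). It was called lower in both, with adjusted p = 0.00602 and 0.0104.

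Several of the other called genes were low in level or close to the limits. Genes 133 and 26 were lower in both SHR groups with no overlap with WKY, and gene 133 fell by 1.96 in SHR-Water and by 2.14 in SHR-TMAO on the log2 scale. Gene 133 (chr20:4673843-4792450) shares exon sequence with 4 other genes on its strand. Gene 26 (chr20:2491696-2492504), the single-exon member among the called ones, fell by 1.27 and 1.38, and its call in SHR-Water was lost with length offsets (log2 -0.94, adjusted p = 0.0587). Genes 34 and 70 were also called in both. In SHR-Water gene 34 did not overlap WKY (log2 -1.95, edgeR adjusted p = 0.00691) and kept its call in all 19 other fits. In SHR-Water the calls of genes 116, 145 and 169 were lost in 6, 5 and 8 of the 12 fits that left out a rat, and that of gene 46 without SHR-Water replicate 4 or WKY replicate 1 (log2 -0.98 and -0.92). That of gene 70 was lost without WKY replicate 2 (log2 -0.96). Gene 173 (chr20:5198258-5212624, 12 exons) was called in SHR-TMAO, where it ran from 4.15 to 7.79 CPM against 9.16 to 15.9 in WKY (log2 -1.20 ± 0.21, adjusted p = 0.00378), and SHR-Water lay between and overlapped both, from 3.91 to 11.7 CPM. In SHR-TMAO the calls of genes 34, 66 and 131 were lost in 4, 10 and 8 of 12 such fits. Those of genes 33, 116 and 145 were kept there in all 19 other fits. Their log2 fold changes in SHR-TMAO were -2.32, -1.48 and -1.78 (edgeR adjusted p = 0.021, 0.00194 and 0.00895).

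**Figure D4:**
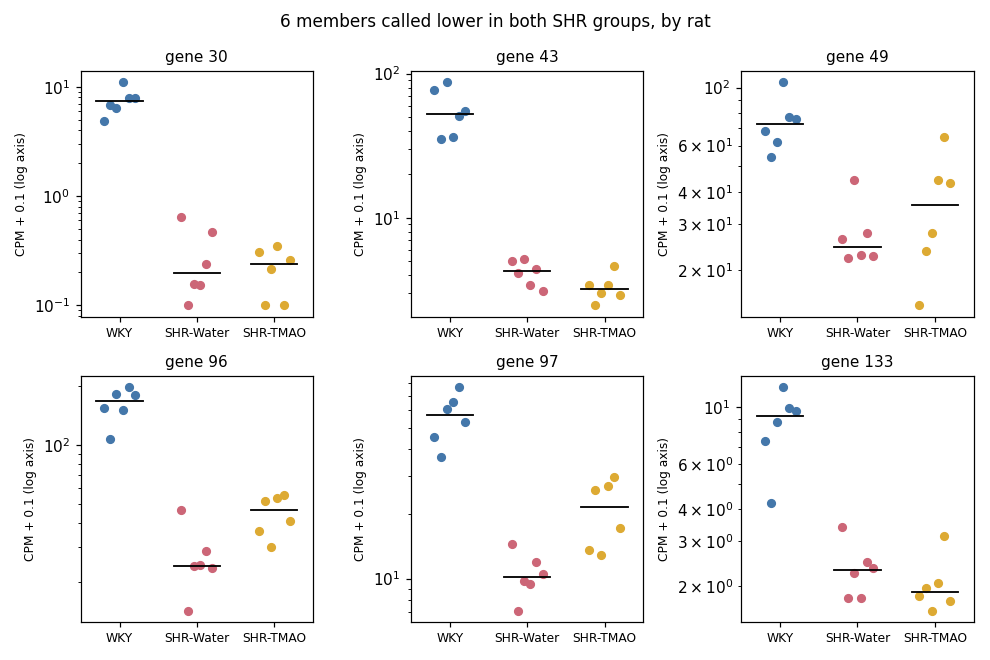
CPM + 0.1 of each rat (y axis, log scale) for 6 members called lower in both SHR groups, with a line at the group median of 6 rats. Genes 30, 43, 96, 97 and 133 keep all SHRs below all WKY rats, whereas gene 49 overlaps WKY in SHR-TMAO (14.6 to 64.6 CPM against 54.2 to 105).

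Gene 106 (chr20:4302347-4508214, 42 exons, minus strand) varied widely within groups. In WKY it ran from 25.2 to 111 CPM (median 67.4) and in SHR-TMAO from 2.6 to 10.2 (median 5.11), with a log2 fold change of -3.72 ± 0.42 (adjusted p = 8.46e-05). In SHR-Water it ran from 2.69 to 59.0 CPM, where rats 3 and 5 were at 59.0 and 43.3 and the other 4 at most 9.99, and the difference from WKY was not called (log2 -1.70 ± 0.67, adjusted p = 0.144). It shares exons on its strand with gene 105, which was not called in any comparison. Gene 105 had mean levels of 298, 238 and 190 CPM in WKY, SHR-Water and SHR-TMAO. WKY replicate 2 was at 854 CPM and the other WKY rats at 91.2 to 282, with a mean of 187 without it, which is below SHR-Water.

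Groups without overlap were counted as well. Among the 151 members tested, SHR-Water and WKY did not overlap for 16 (10.6%), 4 higher and 12 lower, against 4.13% of all genes (1.57% higher and 2.56% lower). SHR-TMAO and WKY did not overlap for 16 (10.6%), 5 higher and 11 lower, against 4.08% of all genes (1.97% higher and 2.1% lower). These counts moved with single libraries. For SHR-Water and WKY there were 29 without WKY replicate 2 (5 higher and 24 lower, against 8.45% of all genes), 22 without SHR-Water replicate 1 (against 6.57%) and 16 without SHR-Water replicate 2 (against 4.55%). For SHR-TMAO and WKY there were 26 without WKY replicate 2 (against 6.77%). Gene 130 (chr20:4610995-4615247, 7 exons) did not overlap with WKY in either SHR group but was under the fold limit. It ran from 30 to 38.1 CPM in WKY, 16.7 to 21.5 in SHR-Water and 16.5 to 23.0 in SHR-TMAO, with adjusted p of 3.53e-04 and 4.65e-04 and log2 fold changes of -0.88 ± 0.11 and -0.81 ± 0.11.

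The last comparison asked what TMAO did within the SHR. No member was called between SHR-TMAO and SHR-Water (0 of 148 tested by edgeR, and 0% of 12852 genes), and the smallest adjusted p of a member was 0.0834. With p not adjusted, 31 members (20.9%) were under 0.05, 19 higher and 12 lower, against 25% of all genes (12.6% higher and 12.4% lower). DESeq2 called 2 members (1.31% of those with an adjusted p, against 2.96% of all genes) and limma voom with quality weights 8 (5.41%, against 8.46%), so the members' share was below that of all genes with both tools. The median log2 fold change was 0.05 over the members and -0.01 over all genes, and over the members it was 0.11 without SHR-Water replicate 1 and -0.01 without replicate 2. Of the 148 members, 106 (71.6%) had a 95% interval within a fold of 2 in either direction, as did 69.2% of all genes. For these members a change beyond 2-fold lay outside the interval, which is approximate. The other members had wider or shifted intervals, and their data set no such limit.

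The 5 members with the smallest adjusted p between SHR-TMAO and SHR-Water were genes 101, 97, 98, 108 and 184. They are described by value, since none was called by edgeR. Gene 101 (chr20:4127644-4132616, 4 exons, minus strand) ran from 72.1 to 111 CPM in SHR-Water and from 113 to 195 in SHR-TMAO, and WKY ran from 99.9 to 208. Its 2 SHR groups did not overlap (1.24% of all genes did so). The difference was 1.76-fold with a log2 interval of 0.47 to 1.16 (adjusted p = 0.0834). Gene 97 was 2.04-fold higher in SHR-TMAO (interval of log2 0.51 to 1.55, adjusted p = 0.0841). It was called by DESeq2 (log2 1.03, adjusted p = 0.00613) and by limma voom (log2 1.17, adjusted p = 0.00604). The other member that DESeq2 called, gene 6, was lower (log2 -1.78, adjusted p = 0.0364), as it was by limma voom (log2 -1.74, adjusted p = 0.0189). By edgeR its log2 fold change was -1.76, with an interval of -2.93 to -0.59 (adjusted p = 0.101). Gene 6 was low in level, from 0.343 to 3.17 CPM in SHR-Water and from 0.138 to 0.745 in SHR-TMAO. Gene 98 (chr20:4087618-4097190, 5 exons) ran from 24.2 to 71.2 CPM in SHR-Water and from 51.6 to 99.8 in SHR-TMAO (log2 0.87, interval 0.35 to 1.39, adjusted p = 0.091).

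The other 2 genes of smallest adjusted p lay apart from genes 97, 98 and 101. Gene 184 (chr20:5441876-5445553, 3 exons), the member of highest FPKM in WKY, ran from 188 to 403 CPM in SHR-Water, from 243 to 666 in SHR-TMAO and from 245 to 537 in WKY (log2 0.83, adjusted p = 0.0961). Gene 108 (chr20:4329811-4353785, 30 exons) went down, from 27.3 to 61.8 CPM in SHR-Water to 16.7 to 38.4 in SHR-TMAO (log2 -0.87, adjusted p = 0.093). Gene 96, which neighbours gene 97, had a log2 fold change of 0.77 with an interval of 0.24 to 1.30 (adjusted p = 0.104).

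SHR-Water replicate 1 bore on these values. It was the highest SHR-Water rat and replicate 2 the lowest in genes 96, 97, 98, 101 and 184. Without replicate 1, 10 members were called between SHR-TMAO and SHR-Water (6.71%, close to the 5.26% of all genes in the same fit), 7 higher and 3 lower. Among them were genes 96 (log2 1.0, adjusted p = 0.0297), 97 (1.15, adjusted p = 0.0297), 98 (1.09, adjusted p = 0.0297) and 184 (1.0, adjusted p = 0.0304). The 3 lower ones were genes 6, 66 and 106 (log2 -1.94, -1.11 and -2.21). Without SHR-TMAO replicate 1, 1 member was called (0.671%, against 3.4% of all genes), gene 97 (log2 1.13, adjusted p = 0.0164). The SHR groups did not overlap for 2 members of 148 (1.35%, close to the 1.24% of all genes). There were 7 without SHR-Water replicate 1 (against 3.75% of all genes) and 3 without replicate 2 (against 1.62%). The share of counts on mitochondrial genes was 14.9% ± 5.13 for WKY, 21.4% ± 5.44 for SHR-Water and 16.8% ± 3.54 for SHR-TMAO (SD, n = 6 each), and its part in these differences was not tested.

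**Figure D5:**
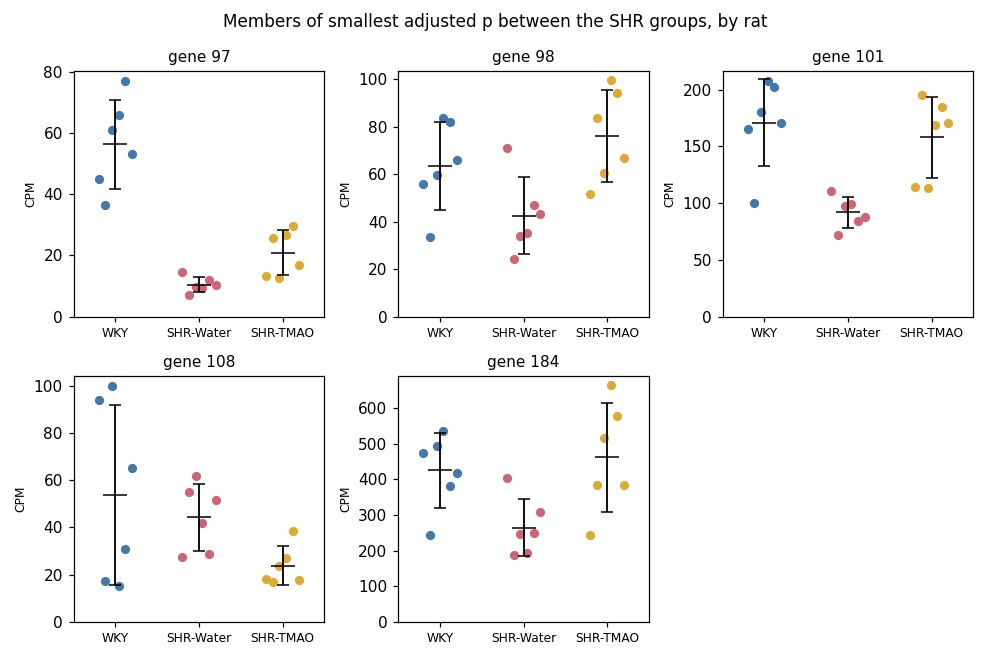
CPM of each rat (y axis, linear from 0) for the 5 members of smallest adjusted p between the SHR groups, with the mean and SD of 6 rats per group. SHR-TMAO means lie above SHR-Water means in genes 97, 98, 101 and 184 and below in gene 108, and none is called by edgeR. Gene 101 is the one without overlap between the SHR groups (72.1 to 111 against 113 to 195 CPM).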

How the data were processed

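RNA of vWAT from 18 rats was sequenced. The sample labels gave each rat's group and number. Per the labels, the authors used cutadapt 2.5, HISAT2 2.1.0, featureCounts 1.6.3 and DESeq2 with Rnor_6.0. The deposited values are raw counts of reads on exons, made per the file header with the Ensembl release 96 annotation, by strand, without multi-mapping reads. Everything else was computed here.

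Differences over all genes were fitted on the 2 groups compared by the quasi-likelihood test of edgeR 4.0.16 (R 4.3.3), after its default filter on low counts and TMM scaling, and p-values were adjusted by Benjamini-Hochberg. The members and lists were chosen with earlier results of these data known. Members with an identifier in the text are the 2 raised and the 2 lowered with the smallest adjusted p in SHR-Water against WKY. The rest are the called members by number, with genes of small adjusted p under TMAO. Genes 6, 80, 105, 130, 181 and those at 0 were chosen after their values were seen. DESeq2 1.42.0 and limma 3.58.1 were alternatives. Pathway and cell type lists, which need names, were not analysed here.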

Additional observations from a re-analysis of the deposited data

Results flagged for a closer look

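For the 30 genes that were called or had the smallest adjusted p under TMAO and for the summed CPM of all members, 93 groups of 6 rats were looked at for a rat far from the others (Dixon's 95% limit), and 8 had one. Chance gives about 1 in 20. In gene 33, SHR-TMAO replicate 4 was at 3.01 CPM and the other 5 rats between 0.319 and 1.15. In gene 42, WKY replicate 1 was at 0.632 CPM and the others between 0 and 0.183. In gene 49, SHR-Water replicate 3 was at 44.1 CPM and the others between 22.2 and 27.8. In gene 66, WKY replicate 2 was at 7.13 CPM and the others between 1.73 and 3.75. In gene 90, SHR-Water replicate 6 was at 4.46 CPM and the others between 0.546 and 1.65. In gene 131, SHR-TMAO replicate 5 was at 0.888 CPM and the others between 0.144 and 0.405. In gene 133, SHR-TMAO replicate 5 was at 3.05 CPM and the others between 1.5 and 1.95. In gene 169, SHR-Water replicate 1 was at 31.1 CPM and the others between 10.2 and 14.3.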

How the results depend on the processing

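The number of members called was recomputed with RLE size factors, no low-count filter, DESeq2, limma voom, all 18 rats in 1 fit, length offsets, a replicate block, no fold limit and each rat left out. Leaving out members with a same-strand overlap was chosen after seeing the data, and the medians and overlaps without 3 libraries also after seeing the data. In SHR-Water against WKY the count of 20 became 33 with limma voom (21.9% of members tested, against 12.7% of all genes). With a rat left out it was 17 to 26. In SHR-TMAO against WKY the count of 22 became 14 without overlapping members (11.1% of the rest, against 3.62% of all genes). With a rat left out it was 18 to 28. Between SHR-TMAO and SHR-Water the count of 0 became 2 with DESeq2 (1 higher and 1 lower), 8 with limma voom (6 higher and 2 lower) and 0 to 10 with a rat left out, and was 0 otherwise. The cause was not tested, other than that leaving out members lowers the count by construction. The other settings stayed within 1.5 times. No direction of a called member turned in these settings. Of the genes called, 14 of 20 and 16 of 22 kept their call in all of them.

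Replicate numbers did not clearly pair the rats. Correlations of same-numbered rats ran from -0.35 to 0.59 for SHR-Water and WKY, with 5 of 6 over 0.1 and replicate 2 at 0.59. They ran from -0.26 to 0.32 for SHR-TMAO and WKY (1 of 6 over 0.1). For SHR-TMAO and SHR-Water they ran from -0.42 to -0.02 (0 of 6 over 0.1). In these pairs 1, 2 and 0 rats were closest to their own number. With the replicate block 22, 18 and 0 members were called. These were 14.6%, 11.9% and 0% of the members tested, against 4.54%, 2.66% and 0% of all genes. In SHR-TMAO against WKY the block ended the calls of genes 34, 66, 70 and 131 (adjusted p = 0.0503, 0.0788, 0.0687 and 0.0536). Genes under about 1 CPM limit the precision, and overlapping or copied genes limit what a count stands for.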
